A study of Capra hircus with 9 samples.

Results

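The miRNA cluster of miR-424, miR-503, miR-450 and miR-542 was examined in the mammary gland of Laoshan dairy goats at 3 stages. Its members were chosen by miRNA number: every known miRNA named miR-424, miR-503, miR-450 (also with a letter) or miR-542 was taken, both arms included. The rule used no measured value, but it was set with earlier results of these data known. The rule found 6 of the 1359 listed miRNAs, which are the 5p and 3p arms of chi-miR-424, chi-miR-450 and chi-miR-542. miR-503 was not analysed here. Tissue was taken in late lactation (LL) at 240 days postpartum, in the dry period (DP) at 300 days postpartum, and in late gestation (LG) on day 140 after mating. Each stage had 3 goats, and every goat gave 1 small RNA library. All 9 goats were healthy, of parity 3 and 4 years old on average, were kept on 1 farm, and the labels give no treatment or genetic change. Each stage was sampled from different animals after slaughter, so stage and animal cannot be separated beyond the spread among 3 goats. The tissue was whole gland, in which fewer cells of a type and less RNA per cell cannot be told apart.

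A miRNA hairpin is cut into a 5p and a 3p arm, and usually one of them is kept as the guide that pairs with target mRNAs through its seed, the bases near its 5′ end. The hairpins of this cluster lie close together on the X chromosome of mammals and are generally regarded as parts of shared primary transcripts. In the mouse mammary gland, miR-424 and miR-503 are known to be induced by TGF-beta and to promote the regression of the epithelium at involution, by repressing the survival genes BCL2 and IGF1R. miR-424-5p has the seed of the miR-15/16 family, which acts on cell cycle and survival genes. miR-542-3p is known for repressing BIRC5 (survivin), an inhibitor of apoptosis.

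On the goat build ARS1.2, the RefSeq annotation placed the 3 hairpins on chromosome X, in the order MIR450 (93 bases, chrX:11094398-11094490), MIR542 (109 bases, chrX:11095442-11095550) and MIR424 (109 bases, chrX:11100716-11100824). These coordinates are on the second of 2 separately numbered stretches of that chromosome. The hairpins spanned 6427 bases, with 951 bases between MIR450 and MIR542 and 5165 bases between MIR542 and MIR424. They overlapped no other annotated gene and were therefore intergenic. The nearest protein-coding gene was HPRT1 (a purine salvage enzyme), 27972 bases from MIR450's side of the group, and GPC3 (glypican 3) lay 294072 bases away on the other side. No other annotated miRNA gene lay within 50 kb (0 found).

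The total count per library was 16451436 to 24616668 in LL, 13672653 to 23392916 in DP and 21301913 to 34378995 in LG. Levels are given as CPM, read counts relative to the library total after TMM scaling, which applies a factor per library (0.745 to 1.28) to allow for unequal composition. Within a stage, no library was a repeat of another (chi-square of counts per degree of freedom 219 to 3940 between goats of a stage). Marker miRNAs of epithelium (the miR-200 and miR-183 families) were all detected (8 of 8), summing to 35325 to 43018 CPM in LL, 14060 to 22385 CPM in DP and 34932 to 38643 CPM in LG. All 6 members reached 0.5 CPM, here before TMM scaling, in at least 3 libraries and were tested among 696 miRNAs. chi-miR-542-5p passed this filter only through LG, where all 3 libraries reached that level before scaling, against 1 in DP and 0 in LL, so its lower level in LL was partly fixed by the filter and it is left out of the counts of members for LL vs. LG below, unless named.

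The cluster was a small part of the miRNA pool, holding 0.00395% to 0.0578% of the counts of a library. Its abundant miRNAs were chi-miR-542-3p and chi-miR-450-5p, which together held 76.2% to 87.2% of the cluster's counts. chi-miR-424-5p and chi-miR-424-3p were intermediate, and chi-miR-450-3p and chi-miR-542-5p were near the limit of the filter, with 1 to 80 counts in a library. Summed over the 6 miRNAs, the level was 68.1 ± 16.7 CPM in LL, 231 ± 236 CPM in DP and 291 ± 59.6 CPM in LG (mean ± SD, n = 3). The mean in LG was 4.27 times that in LL. DP could not be placed in this order, because its SD exceeded its mean.

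LL vs. LG asks how the lactating gland near its end differs from the gland preparing for the next lactation. The cluster was low in LL and high in LG, with no overlap of libraries for any of the 5 miRNAs counted, and chi-miR-542-3p and chi-miR-450-3p passed the test. The survivin regulator chi-miR-542-3p was at 15.1, 18.1 and 28.0 CPM in LL and at 100.3, 110.4 and 164 CPM in LG. chi-miR-450-5p was at 27.6, 33.9 and 42.6 CPM in LL and at 105, 122 and 128 CPM in LG. The seed family member chi-miR-424-5p was at 7.14, 8.06 and 10.1 CPM in LL and at 22.3, 24.4 and 43.2 CPM in LG. In each case every LG library was above every LL library, and the LG mean was 3.41 times (chi-miR-450-5p) to 6.11 times (chi-miR-542-3p) the LL mean.

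**Figure D1:**
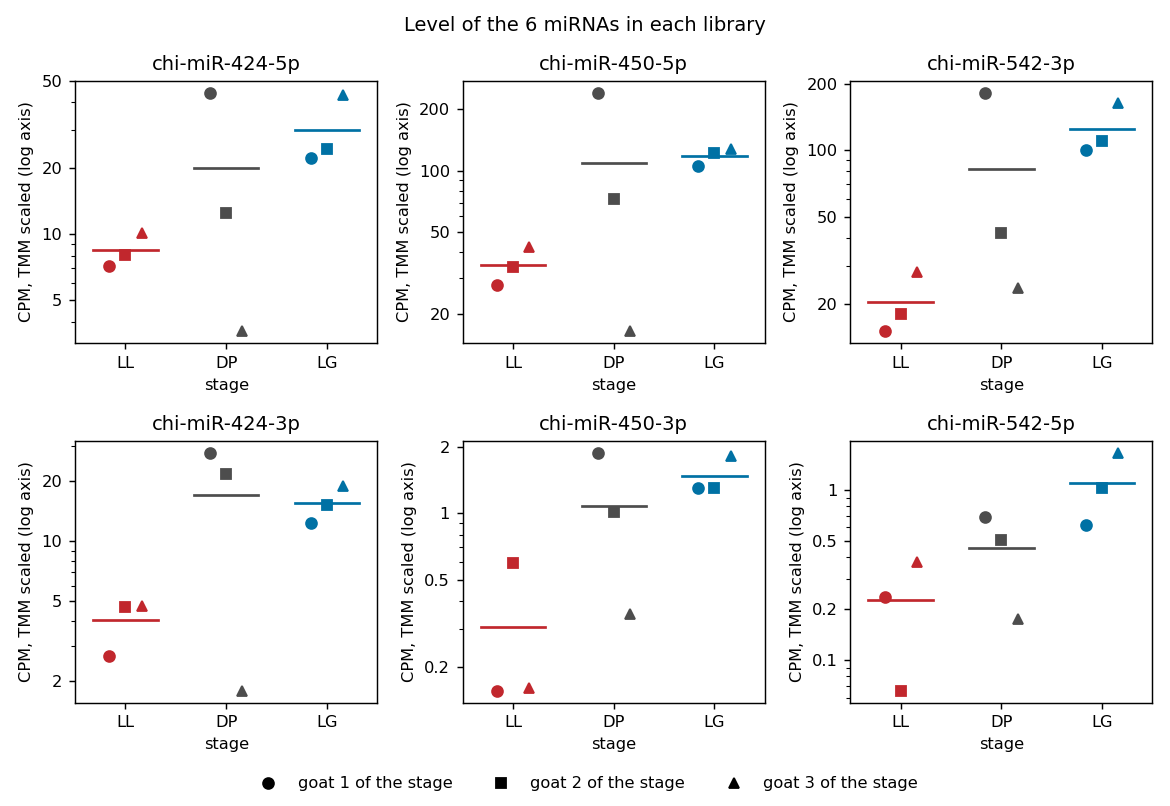
Level of each of the 6 miRNAs in the 9 libraries, as TMM scaled CPM on a log axis, with 1 panel per miRNA. Points are goats, their shapes mark the goat number within a stage, and bars are means of 3 libraries. In every panel all LL points lie below all LG points, whereas the DP points spread from the highest to the lowest goat by 3.96 to 15.6 times.

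The other arms lay in the same order. chi-miR-424-3p was at 2.67, 4.69 and 4.75 CPM in LL and at 12.4, 15.2 and 19.0 CPM in LG. chi-miR-450-3p was at 0.157, 0.595 and 0.162 CPM in LL and at 1.30, 1.30 and 1.81 CPM in LG. chi-miR-542-5p was at 0.235, 0.0661 and 0.378 CPM in LL and at 0.617, 1.03 and 1.65 CPM in LG. Both scarce arms rested on few reads in LL, with 2, 9 and 3 counts of chi-miR-450-3p and 3, 1 and 7 counts of chi-miR-542-5p.

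In edgeR's quasi-likelihood test over all 9 libraries, with Benjamini-Hochberg adjustment over 696 miRNAs, chi-miR-542-3p was lower in LL than in LG by a log2 fold change of -2.61 (SE 0.65, 95% interval -4.05 to -1.16, adjusted p = 0.0239). chi-miR-450-3p was lower by -2.26 (SE 0.68, interval -3.76 to -0.76, adjusted p = 0.0484). These 2 of 5 passed both limits for a DE-miRNA, an adjusted p under 0.05 and a change of more than 1 on the log2 scale, which 3.88% of all tested miRNAs passed in this direction. The other log2 fold changes were -2.23 for chi-miR-542-5p (adjusted p = 0.0503), -1.94 for chi-miR-424-3p (adjusted p = 0.0937), -1.83 for chi-miR-424-5p (adjusted p = 0.1005) and -1.77 for chi-miR-450-5p (adjusted p = 0.109). Libraries did not overlap, with LL lower, for 5 of 5 members and for 17.4% of all tested miRNAs. This was also so for chi-miR-542-5p. The 5 members are arms of 3 neighbouring hairpins measured in the same goats, so they are not 5 separate observations. The median log2 fold change over the 5 was -1.94, against 0.17 for all tested miRNAs.

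The number of calls changed with the libraries in the fit. When only the LL and LG libraries were fitted, 5 of 5 were called lower in LL, and chi-miR-542-5p too, with edgeR adjusted p-values of 0.000768 to 0.0165 and a background of 10.9% of tested miRNAs. With DP replicate 3 left out of the common fit, 5 of 5 were called (background 7.89%), and with DP replicate 1 left out, 4 of 5 were (7.13%), with chi-miR-542-5p called besides in both. Leaving out LL replicate 1 gave 0 calls (background 1.74%), and 1 call was made without LL replicate 2 (1.75%), LL replicate 3 (3.34%), LG replicate 1 (3.47%, with chi-miR-542-5p called besides), LG replicate 2 (4.09%) or LG replicate 3 (3.07%). chi-miR-542-3p was called in 17 of 19 alternative settings, at -3.22 to -2.60 with adjusted p-values of 0.000149 to 0.0602, and missed the limit without LL replicate 1 (0.0580) and without LL replicate 2 (0.0602). chi-miR-450-3p, at 2 to 9 counts in LL, was called in 12 of 18, with adjusted p-values of 0.00557 to 0.108, and lost its call with the replicate block and without LL replicate 1, LL replicate 3, LG replicate 1, LG replicate 2 or LG replicate 3.

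Marker sums of other cell types also differed between these stages. Those of blood, immune cells, skeletal muscle and stroma were higher in LL than in LG without overlap of libraries. Their LL means were 3.53, 2.20, 1.74 and 1.52 times those of LG. Those of epithelium (1.04 times) and endothelium (1.18 times) overlapped. The part of these differences in the cluster's levels was not tested.

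**Figure D2:**
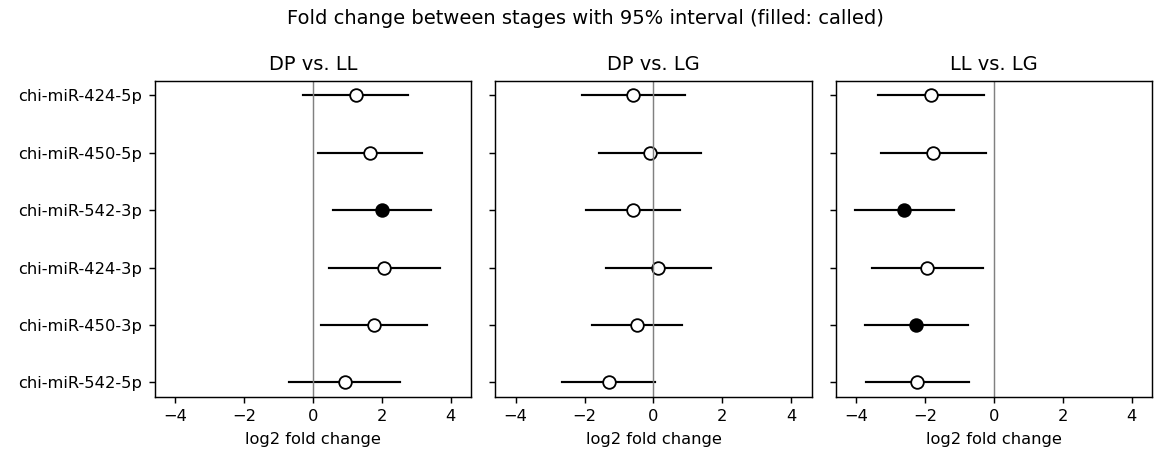
Log2 fold change of each of the 6 miRNAs in DP vs. LL, DP vs. LG and LL vs. LG from edgeR's test of 9 libraries, with 95% intervals as bars. Filled points passed an adjusted p under 0.05 with a change above 1, which were chi-miR-542-3p in DP vs. LL and chi-miR-542-3p and chi-miR-450-3p in LL vs. LG.

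DP vs. LL addresses the passage from late milk secretion to the dry gland. For the 4 more abundant members the 3 DP goats differed from each other by 7.64 to 15.6 times, and the goats of LL and LG by at most 1.93 times. The scarce arms chi-miR-450-3p and chi-miR-542-5p differed by 5.40 and 3.96 times in DP, and by 3.79 and 5.72 times in LL. chi-miR-542-3p was at 181.5, 41.9 and 23.8 CPM in DP replicates 1, 2 and 3. chi-miR-450-5p was at 240.2, 72.7 and 16.5 CPM in the same order. chi-miR-424-5p was at 44.2, 12.5 and 3.62 CPM. For these miRNAs DP replicate 1 was above every LG library and DP replicate 3 lay within or below the range of LL.

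The other arms had the same order of goats. chi-miR-424-3p was at 27.9, 21.7 and 1.79 CPM in DP replicates 1, 2 and 3, so that both of the first goats were above LG and the last was below LL. chi-miR-450-3p was at 1.88, 1.01 and 0.349 CPM, and chi-miR-542-5p at 0.690, 0.506 and 0.174 CPM. DP replicate 1 exceeded DP replicate 3 by 15.6 times for chi-miR-424-3p, 14.6 times for chi-miR-450-5p, 12.2 times for chi-miR-424-5p, 7.64 times for chi-miR-542-3p, 5.40 times for chi-miR-450-3p and 3.96 times for chi-miR-542-5p. Over the 304 miRNAs averaging 10 CPM or more, the median ratio of the highest to the lowest library was 1.92 in DP, 1.36 in LL and 1.31 in LG. The order of DP replicates 1, 2 and 3 from high to low, seen in all 6 members, was seen in 18.0% of all tested miRNAs.

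Marker miRNAs of other cell types also differed among the DP goats. In DP replicates 1, 2 and 3 the 8 epithelial markers summed to 22385, 19977 and 14060 CPM. The 6 stromal markers (miR-143, miR-145, miR-199a and miR-214) summed to 47563, 67759 and 152684 CPM, with 77807 to 125765 CPM in LL and 57452 to 65618 CPM in LG. The 4 skeletal muscle markers (miR-1, miR-133a, miR-133b and miR-206) summed to 907, 1014 and 3400 CPM, with 672 to 879 CPM in LL and 383 to 495 CPM in LG. The goat with the lowest cluster level thus had the lowest epithelial sum and the highest stromal and muscle sums of its stage. Of the immune markers 3 of 5 were listed, and they summed to 1410, 1935 and 767 CPM in the DP goats, 581 to 740 CPM in LL and 243 to 360 CPM in LG. Of the blood markers 3 of 4 were listed, summing to 122, 1284 and 576 CPM in the DP goats, 364 to 551 CPM in LL and 87.1 to 168 CPM in LG. The endothelial pair of miR-126 arms (2 of 2 listed) summed to 19028, 31975 and 28313 CPM in the DP goats, 15853 to 22980 CPM in LL and 14716 to 16363 CPM in LG. The part of these differences in the cluster's levels was not tested.

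In the same edgeR test, chi-miR-542-3p was higher in DP than in LL by a log2 fold change of 2.01 (SE 0.64, 95% interval 0.60 to 3.42, adjusted p = 0.0372). It was the only member called (1 of 6), a share near the 15.1% of all tested miRNAs called higher in DP. It was called in 13 of 19 alternative settings, at 0.57 to 2.48, and lost its call with limma-voom (1.47, adjusted p = 0.119), in the fit of only DP and LL (1.93, adjusted p = 0.0708) and with the replicate block (1.75, adjusted p = 0.0851). The others had log2 fold changes of 2.08 (chi-miR-424-3p, adjusted p = 0.0520), 1.79 (chi-miR-450-3p, adjusted p = 0.0756), 1.66 (chi-miR-450-5p, adjusted p = 0.0941), 1.25 (chi-miR-424-5p, adjusted p = 0.194) and 0.93 (chi-miR-542-5p, adjusted p = 0.369). Libraries of DP and LL overlapped for every member (0 of 6 without overlap, against 21.0% of all tested miRNAs higher in DP). Without DP replicate 1 none was called (background 12.2%). In that fit chi-miR-542-3p was at 0.57 (adjusted p = 0.233), chi-miR-450-5p was at 0.25 (adjusted p = 0.721) and chi-miR-424-5p turned to -0.18. The others were at 1.42 (chi-miR-424-3p), 1.03 (chi-miR-450-3p) and 0.42 (chi-miR-542-5p). Without DP replicate 3, 5 of 6 were called, all but chi-miR-542-5p, with a background of 13.9%. Without LL replicate 1 none was called (background 8.85%), and without LL replicate 2 the only call was chi-miR-450-3p (2.62, adjusted p = 0.0371, background 9.32%).

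DP vs. LG compares the dry gland with the gland before birth. None of the 6 was called (0 by edgeR, 0 by DESeq2 and 0 by limma-voom), while 31.5% of all tested miRNAs were called in either direction and 9.91% were called lower in DP. At an unadjusted p under 0.05, edgeR had 0 members, whereas DESeq2 and limma-voom each had 1, chi-miR-542-5p (adjusted p = 0.0644 and adjusted p = 0.109). Its log2 fold change in edgeR's test was -1.30 (95% interval -2.65 to 0.05), in a direction partly fixed by the filter. The 95% intervals of the other log2 fold changes were wide, at -1.96 to 0.76 for chi-miR-542-3p, -1.59 to 1.37 for chi-miR-450-5p, -2.07 to 0.91 for chi-miR-424-5p, -1.78 to 0.83 for chi-miR-450-3p and -1.39 to 1.67 for chi-miR-424-3p, and so allow a change of more than 1 in at least one direction. The call depended on DP replicate 1. Without it, edgeR called chi-miR-542-3p (-2.11, adjusted p = 0.00224), chi-miR-424-5p (-2.07, adjusted p = 0.0112) and chi-miR-450-5p (-1.59, adjusted p = 0.0338) lower in DP, 3 of 6 against a background of 16.6%. These comparisons share libraries, so they are not separate observations of the cluster.

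Ratios within a library do not depend on scaling, and they were used to ask whether the arms and hairpins kept their proportions. The 2 arms of chi-miR-424 were of like abundance, with a ratio of 5p to 3p counts of 2.65, 1.71 and 2.13 in LL, 1.58, 0.577 and 2.01 in DP and 1.80, 1.61 and 2.27 in LG. DP replicate 2 was the only library with more 3p than 5p. chi-miR-450 was nearly all 5p, at 44.5 to 226 times the 3p count, and chi-miR-542 nearly all 3p, with a 5p to 3p ratio of 0.00398 to 0.0181. Libraries of the stages overlapped for every arm ratio (9 two-sided exact permutation tests of stage means, p = 0.2 to 0.8, adjusted p = 0.75 to 0.8), and 3 libraries against 3 cannot go below p = 0.1.

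The ratios between main arms of different hairpins were chosen after their values were seen. chi-miR-542-3p was 2.11, 2.24 and 2.76 times chi-miR-424-5p in LL, 4.11, 3.35 and 6.53 times in DP and 4.49, 4.51 and 3.79 times in LG. All LL libraries were below all others, with a mean log2 ratio of 1.24 ± 0.20 in LL, 2.16 ± 0.49 in DP and 2.09 ± 0.14 in LG (SD, n = 3). The exact permutation p of LL against either other stage was 0.1, the smallest possible, and 0.225 after adjustment over 9 tests. For DP this separation depended on the arm of chi-miR-424. Against chi-miR-424-3p, DP replicate 2 had 912 to 472 counts, a lower ratio than in any LL library (193 to 34, 274 to 71 and 519 to 88). DP replicates 1 and 3 and all LG libraries stayed above LL with that arm, which was not tested. chi-miR-542-3p to chi-miR-450-5p was at 0.549, 0.535 and 0.658 in LL, 0.756, 0.577 and 1.44 in DP and 0.954, 0.908 and 1.28 in LG. LL and LG did not overlap, with the same exact permutation p of 0.1 (adjusted 0.225), while LL and DP did. Relative to both other main arms, chi-miR-542-3p was thus lower in LL than in LG in every library, in a design that cannot pass the threshold. chi-miR-450-5p to chi-miR-424-5p was at 3.85, 4.19 and 4.19 in LL, 5.43, 5.80 and 4.53 in DP and 4.71, 4.97 and 2.97 in LG. DP lay above LL without overlap (exact permutation p = 0.1, adjusted 0.225), and LG overlapped both.

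**Figure D3:**
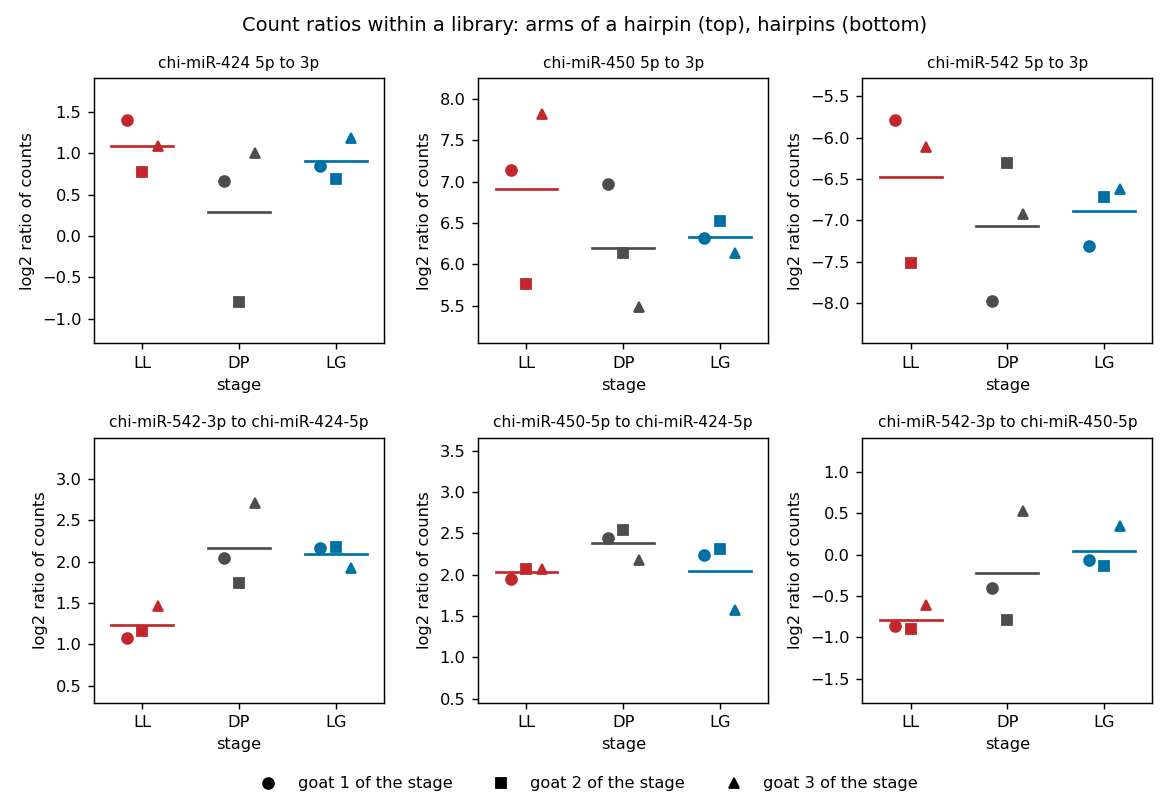
Log2 ratios of counts within a library for the arms of the 3 hairpins and for pairs of main arms of different hairpins, by stage. Each point is 1 library and bars are means of 3. The ratio of chi-miR-542-3p to chi-miR-424-5p is lower in all 3 LL libraries than in any other, and the arm ratios overlap between stages.

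The seed family of miR-424-5p comprises miR-15a, miR-15b, miR-16a, miR-16b, miR-195, miR-497 and miR-503 besides, of which 6 were listed outside the cluster. chi-miR-16a-5p was the most abundant of them, with mean levels of 1872 CPM in LL, 4536 CPM in DP and 1616 CPM in LG. chi-miR-424-5p held 0.301%, 0.311% and 0.441% of the family's counts in LL, 0.794%, 0.153% and 0.0788% in DP and 0.820%, 0.961% and 2.02% in LG. Each LG library was above each LL and each DP library (exact permutation p = 0.1 in both cases, the smallest possible, and 0.15 after adjustment over 3 tests). The 95% Wilson interval, which covers counting error only, was 0.738% to 0.855% for DP replicate 1 and 0.760% to 0.885% for LG replicate 1, so these adjacent values of both stages were not separated by depth.

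The other members of the family had their highest mean level in DP. In DP vs. LL, 5 of 6 were called higher in DP by edgeR, with 15.1% of all tested miRNAs called so, at log2 fold changes of 1.78 for chi-miR-15b-5p (adjusted p = 0.00331), 1.51 for chi-miR-16b-5p (0.00287), 1.501 for chi-miR-497-5p (0.00512), 1.28 for chi-miR-16a-5p (0.00378) and 1.103 for chi-miR-15a-5p. chi-miR-195-5p was at 1.23 and did not pass (adjusted p = 0.0785). The epithelial marker sum was lower in DP than in LL (0.487 times the LL mean), and the immune (2.13 times) and skeletal muscle (2.38 times) sums were higher, each without overlap of libraries, and their part in the family's levels was not tested. In DP vs. LG, chi-miR-16a-5p (1.49, adjusted p = 0.00134) and chi-miR-497-5p (1.55, adjusted p = 0.00331) were called higher in DP, 2 of 6 against 21.6% of all tested miRNAs. In LL vs. LG none of the 6 was called (0 by edgeR, DESeq2 and limma-voom), 2 had an unadjusted p under 0.05 in edgeR's test, and the log2 fold changes were -0.82 to 0.21. These were chi-miR-15b-5p (-0.82) and chi-miR-16b-5p (-0.67), whose LL libraries, like those of chi-miR-424-5p, all lay below their LG libraries. With library size only, 2 of the 6 were called lower in LL (background 12.9%), the most in any setting. The fit of only LL and LG called 1 of the 6 (background 10.9%). The difference between chi-miR-424-5p and the rest of the family was tested only as the share above.

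**Figure D4:**
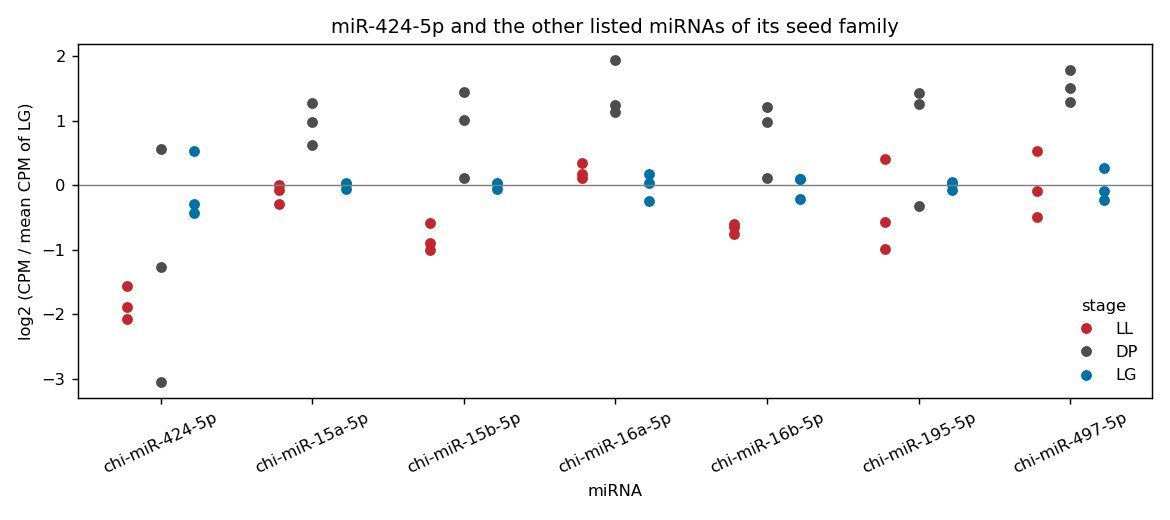
Level of chi-miR-424-5p and of the 6 other listed miRNAs of its seed family in the 9 libraries, as log2 of the CPM over the mean CPM of LG, with 1 point per library and colours for the stages. The 3 LL points lie below all LG points for chi-miR-424-5p, chi-miR-15b-5p and chi-miR-16b-5p, and the 6 other miRNAs have most of their DP points above LG.

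The profile of chi-miR-542-3p over the 9 libraries was compared with those of 362 other known miRNAs by the root mean square difference of log2 CPM, each centred on its own mean. The nearest were chi-miR-432-5p (0.51), chi-miR-1814 (0.57), chi-miR-433 (0.62), chi-miR-412-5p (0.70) and chi-miR-376a (0.71), against a median of 1.52 over the tested miRNAs outside the cluster. Of these 5, 4 are annotated on chromosome 21, as are 19.4% of the known miRNAs with a gene, in the region from chr21:65050962-65051091 (chi-miR-433) to chr21:65227683-65227804 (chi-miR-412-5p), and chi-miR-1814 on chromosome 4. chi-miR-432-5p was at 10.2, 11.2 and 8.74 CPM in LL, 81.9, 21.9 and 18.1 CPM in DP and 29.6, 36.2 and 51.0 CPM in LG. Like chi-miR-542-3p, it was low in LL, highest in DP replicate 1 and above LL in all LG libraries. It was picked for nearness over these same libraries, so this likeness follows from the choice.

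The members of the cluster were also near each other. Among all 695 other tested miRNAs, chi-miR-424-5p ranked 1 (0.49) and chi-miR-450-5p ranked 2 (0.50) by closeness to chi-miR-542-3p, followed within the cluster by chi-miR-450-3p at rank 6 (0.62), chi-miR-542-5p at rank 8 (0.65) and chi-miR-424-3p at rank 11 (0.73). Outside the cluster, chi-miR-433 and chi-miR-380-3p were among the 3 nearest to both chi-miR-424-5p and chi-miR-450-5p, and chi-miR-1814, chi-miR-432-5p and chi-miR-130b-3p were the nearest to chi-miR-424-3p.

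**Figure D5:**
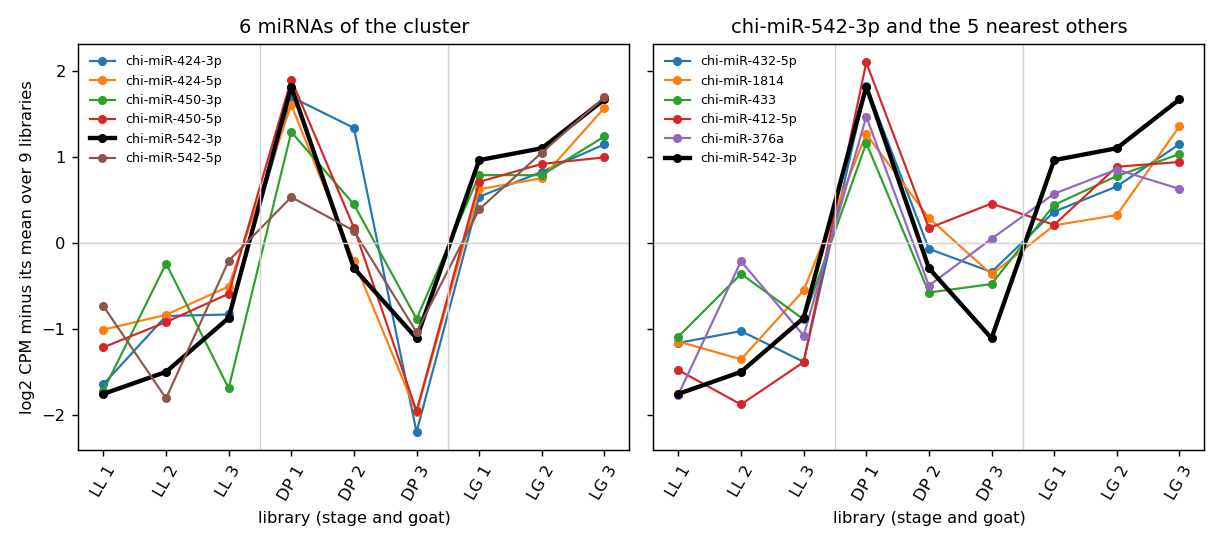
Centred log2 CPM of the members and of the 5 miRNAs nearest to chi-miR-542-3p over the 9 libraries. Lines only join the points of 1 miRNA and carry no order. All miRNAs shown lie below their own mean in the 3 LL libraries and above it in DP replicate 1 and the 3 LG libraries. For the 5 nearest this follows from how they were picked.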

How the data were processed

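Small RNA libraries of 9 goats were analysed. The authors trimmed reads with Trimmomatic, aligned them to ARS1.2 with miRDeep2, merged known miRBase miRNAs with predicted ones and deposited unnormalized read counts per mature miRNA. Column LL replicate 3 was treated as holding expected counts, because the deposited values of 2 predicted miRNAs were fractional, and was rounded to whole numbers. The submitters' processing notes also list cutadapt 4.2, Bowtie 1.1.1 and FastQC 0.11.9. The study's FPKM filter and RUVSeq step were not applied here.

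Each miRNA that reached 0.5 CPM in 3 or more libraries was tested with edgeR 4.0.16 (glmQLFit and glmQLFTest, TMM) in R 4.3.3, in 1 fit of 9 libraries with stage as the only term. DESeq2 1.42.0 and limma 3.58.1 were alternatives, with other scalings, filters and left-out libraries. The fitting code was tested on simulated data. Ratios used raw counts plus 0.5, and exact permutation tests used scipy 1.17.1. Wilson intervals cover counting error only, as no molecular identifiers separated PCR copies. Loci came from the RefSeq gene table of ARS1.2.

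Named miRNAs were all members, the seed family (all counted, the most abundant and the called ones with values), the 5 known miRNAs nearest to chi-miR-542-3p, the 3 nearest to each other member of at least 10 CPM, and any miRNA gene within 50 kb. The members and lists were chosen with earlier results of these data known.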

Additional observations from a re-analysis of the deposited data

How the results depend on the processing

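Percentages in brackets are the share of all tested miRNAs called in the same direction. Of 6 members, chi-miR-542-5p included, the number called in LL vs. LG was 2 (3.88%), and was 6 with DESeq2 (8.48%), 6 with no filter (4.07%), 6 in the fit of only both stages compared (10.9%), 5 with library size only (12.9%), 1 with at least 10 counts in every library (7.87%) and 1 with the replicate block (3.59%). Leaving out each library gave 0 to 6 (1.74% to 7.89%). Without chi-miR-542-5p, the counts of 6 were 5 and that of library size only was 4. In DP vs. LL it was 1 (15.1%), and was 3 with DESeq2 (16.8%), 0 with limma-voom (12.1%), 4 with library size only (23.7%), 2 with no filter (6.98%), 0 in the fit of only both stages compared (9.91%) and 0 with the replicate block (12.2%). Leaving out each library gave 0 to 5 (8.85% to 14.7%), and 0 to 3 in DP vs. LG, where all other settings gave 0. chi-miR-450-3p and chi-miR-542-5p were lost by the filter of 10 counts. TMM took DP replicate 3 as its reference library. With the next one by the same rule, LG replicate 1, chosen after seeing the data, LL vs. LG had 3 calls (6.18%). Without chi-miR-542-5p it had 2. With this reference the calls in DP vs. LL were 2 (15.4%), and none (0) were made in DP vs. LG. The all-miRNA median in LL vs. LG moved from 0.17 to -0.02.

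The sign turned for chi-miR-424-3p in DP vs. LG, at 0.14 and then at -0.10 with DESeq2, -0.60 with limma-voom, -0.030 with upper quartile scaling, -0.061 with library size only, -0.17 when chi-miR-148a-3p was dropped, -0.26 with no filter, -0.30 with at least 10 counts, -0.10 in the fit of only both stages, -0.13 with the other TMM reference and -0.042 with the replicate block, and -0.59 to 0.43 with each library left out. With each library left out, chi-miR-424-5p ranged from -0.18 to 1.65 in DP vs. LL and chi-miR-450-5p from -1.59 to 0.12 in DP vs. LG. Log2 ratios ranged in DP vs. LG from -0.52 to 0.23 (chi-miR-450 arms), -0.57 to 0.27 (chi-miR-542 arms), -0.20 to 0.29 (chi-miR-542-3p to chi-miR-424-5p) and -0.65 to 0.013 (chi-miR-542-3p to chi-miR-450-5p), and in LL vs. LG from -0.25 to 0.13 (chi-miR-450-5p to chi-miR-424-5p). The family share in DP vs. LL ranged from -0.235 to 0.123 percentage points. The cause of these changes was not tested.

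With library size only, the all-miRNA median in LL vs. LG was -0.42, and the median of the 5 members besides chi-miR-542-5p minus the all-miRNA median was -2.27 to -1.90 over all settings. The 5 members besides chi-miR-542-5p stayed lower in LL than in LG in every setting that tested them. The 5 of 6 seed family calls in DP vs. LL ranged from 4 to 6, with 6.98% to 23.7% of all tested miRNAs called higher in DP. In LL vs. LG, family members called lower numbered 2 with library size only (12.9%). They numbered 1 each with no filter (4.07%), at least 10 counts (7.87%) and only both stages (10.9%). The labels do not say that replicate numbers pair goats, and each stage had different animals, so no goat recurs across stages. Not every correlation of same-numbered deviations was above the level set for pairing (-0.10 to 0.21). The block was thus kept as an alternative and left out of the reported test, although 12 of 18 correlations were highest with their own number. Restricting the seed family by sequence was not run, since no sequences were used here. The scarce arms, at 1 to 80 counts, are limited by depth.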

Other observations

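The cluster was compared with the other known miRNAs annotated on chromosome X, of which 29 were tested. In LL vs. LG, edgeR's test called 0 of these 29 lower in LL, against 3.88% of all tested miRNAs, and 4 higher (8.91%). In DP vs. LL it called 8 higher in DP (15.1%) and 1 lower (11.6%). The order of DP replicates 1, 2 and 3 from high to low was seen in 5 of the 29 and in 18.0% of all tested miRNAs.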
